A study of Mus musculus with 12 samples.

Results

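Mucin-type O-glycosylation enzymes were followed in full-thickness distal colon as 39 genes, chosen by their known role and not by their level: 12 polypeptide GalNAc-transferases that initiate O-glycans, 6 genes of the core structures, 4 of chain extension, 12 sialyltransferases, 3 fucosyltransferases and 2 sulfotransferases. All 39 were found among the 35241 gene symbols of the transcript table, where they were represented by 152 transcripts. Of them, 33 had a mean of at least 0.5 over the mice and were tested among the 15880 genes that passed that filter. The other 6 genes, Galnt14, B3gnt6, St6galnac1, St6galnac5, Fut1 and Chst5, had means below 0.5 and are given by level alone.

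RNA of 12 mice was sequenced, 6 of them Spry2IEKO mice, which carry Vil1::Cre and the homozygous floxed Spry2 allele (Spry2-f/f) and so lose Sprouty2 in the intestinal epithelium, where the villin promoter is active. The other 6 were Spry2FF littermates, which carry the same floxed Spry2 allele without Cre. Litters A and B each gave 3 mice of each genotype and 4 females and 2 males, but the Spry2FF group held 3 males and the Spry2IEKO group 1. In litter A both males were Spry2FF mice (2 and 3), and in litter B 1 male was of each genotype (mice 9 and 8). Genotype differences within litter A, and the genotype by litter interaction, are thus mixed with sex. The labels give ages of 6 weeks and 8 weeks in different places, and each mouse is 1 library made from the whole wall, muscle and stroma included.

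In mucin-type O-glycosylation a GalNAc is placed on serine or threonine in the Golgi, a core structure is built on it, the chain is lengthened by galactose and N-acetylglucosamine, and sialic acid, fucose or sulfate closes it. Goblet cells use this pathway to coat the gel-forming mucin Muc2, and the other epithelial cells use it for the membrane mucins at their surface. In the colon these chains make up most of the mass of Muc2, and sialic acid, fucose and sulfate are known to slow their breakdown by bacteria.

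Levels are given as normalized TPM, the authors' TPM scaled between mice and summed over the transcripts of a gene. They are per length, so genes can be compared with each other. Differences are log2 differences of (normalized TPM + 0.5), so those of genes near 0.5 are understated. Spry2 itself was 22.8 to 32.3 normalized TPM in Spry2FF mice (median 28.4) and 18.5 to 22.5 in Spry2IEKO mice (median 19.3), without overlap of the genotypes (p = 0.00216 by a two-sided exact permutation test, the lowest value that groups of 6 can give). All 8 epithelial markers and all 7 smooth muscle markers had means above 0.5, and 4 of the 5 Hox and Prac1 genes listed as marks of the distal end were in the table, all 4 above 0.5. Summed fat markers stood at 343 and 536 normalized TPM in Spry2IEKO mice 4 and 5 and between 0.921 and 53.2 in the other mice, so counts of calls are also given without these 2 mice, a choice made after the values had been seen.

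Extension and sialylation enzymes carried the highest levels. St6galnac6, an α2,6-sialyltransferase also known from glycolipids, was the highest member, with 391.5 to 519.6 normalized TPM over the 12 mice (median 452). B3gnt7, a β1,3-N-acetylglucosaminyltransferase known for lengthening sulfated lactosamine chains, ran from 309 to 529.7 (median 427), and St3gal4, an α2,3-sialyltransferase acting on galactose, from 248 to 467 (median 335). The ranges of these 3 genes overlapped, and St3gal6 (174 to 235) was the next sialyltransferase, below every value of St3gal4. B3gnt7 made up 56.1% of the summed mean level of the 4 extension genes, and St6galnac6 with St3gal4 made up 69.1% of that of the 12 sialyltransferases.

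The initiating and core enzymes were nearer to each other. Galnt7, which prefers peptides that already carry GalNAc, had the highest mean of the 12 initiating genes at 72.2 ± 11.1 normalized TPM (SD, n = 12) and made up 19.7% of their summed mean. Galnt4, Galnt6, Galnt1, Galnt3, Galnt12 and Galnt10 had means between 29.7 and 57.0. Galnt11 and Galnt5 had means of 14.3 and 12.9, and Galnt2 and Galnt18 of 2.49 and 1.62. C1galt1, the core 1 galactosyltransferase, and C1galt1c1, the chaperone it needs (Cosmc), had means of 56.9 and 54.9 normalized TPM, with ranges of 43.7 to 74.2 and 45.3 to 69.2, so their levels overlapped almost fully. The core 2 enzymes Gcnt1 and Gcnt3 had means of 53.0 and 40.9, and Gcnt4 of 0.839. B3gnt6, the core 3 synthase, stayed between 0.191 and 0.504.

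Among the closing enzymes other than sialyltransferases, the 2 fucosyltransferases Fut2 (57.2 to 104.9 normalized TPM), which makes the terminal α1,2-fucose of H antigens, and Fut4 (51.9 to 73.0), which adds α1,3-fucose, overlapped. Fut1, the other α1,2-fucosyltransferase, ranged from 0.184 to 0.775. Chst4, a sulfotransferase that places sulfate on N-acetylglucosamine, ran from 28.0 to 56.8, while its relative Chst5 reached no more than 0.249 and was listed at 0 in 3 mice. St6galnac1, the enzyme that makes sialyl-Tn, was listed at 0 in 1 mouse and reached 0.487. Over the 12 mice the steadiest tested members were Galnt11 and B3gnt3, with coefficients of variation of 7.44% and 7.99%, and the most variable were St6galnac3 (82.5%), Galnt2 (74.9%) and St3gal1 (63.8%), all 3 with means under 3.

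**Figure D1:**
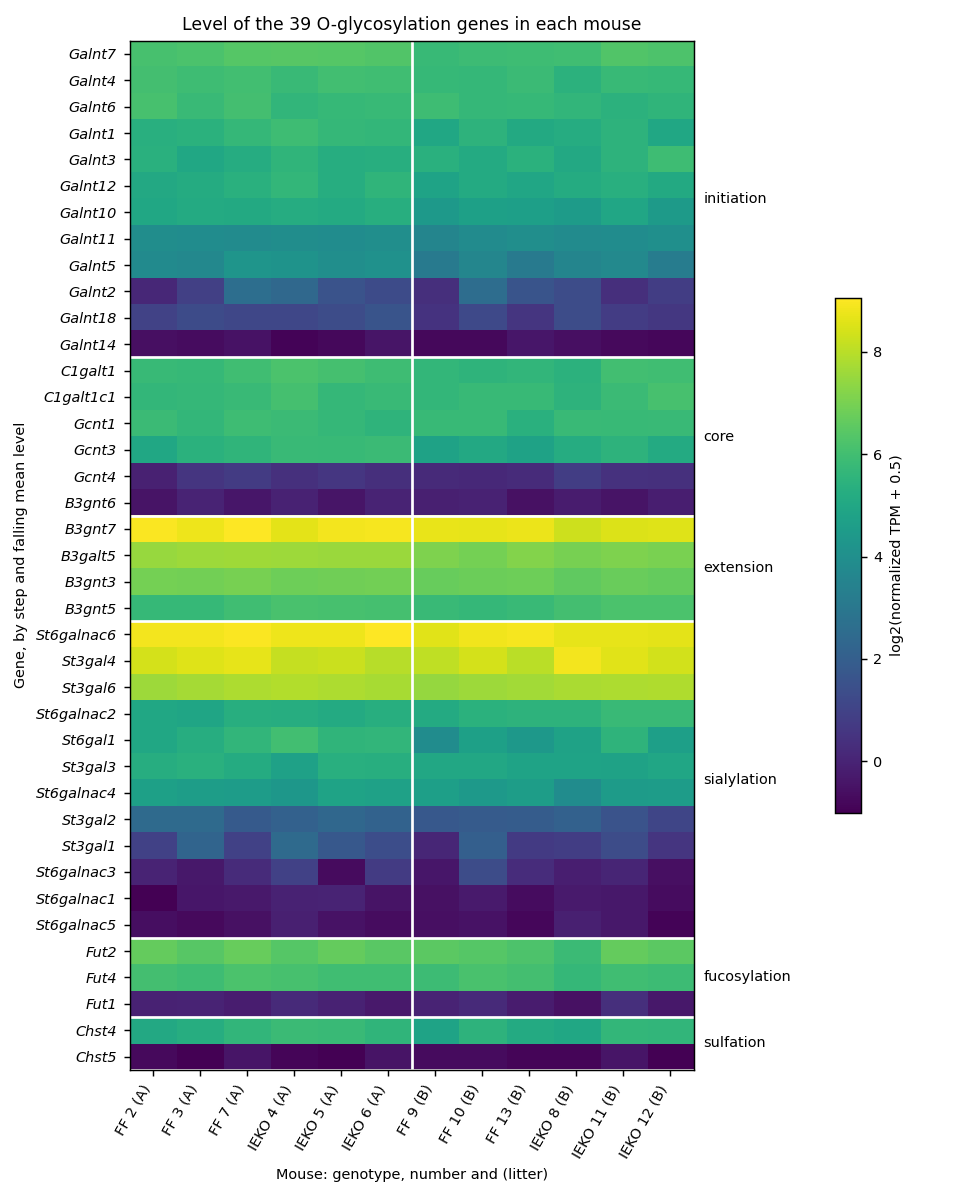
Level of each of the 39 genes (vertical axis, by step and falling mean) in each of the 12 mice (horizontal axis, litter A left of the white line), as log2(normalized TPM + 0.5) in colour. B3gnt7, St6galnac6 and St3gal4 are brightest in every mouse, and the 6 genes with means below 0.5 are dark in all of them.

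Transcripts differed in how they shared a gene. In Gcnt3, B3gnt3, Galnt4, C1galt1, C1galt1c1 and Fut4 a single transcript held the whole signal, and in B3galt5 (94.1%), Galnt10 (94.3%), St6gal1 (90.1%) and Chst4 (88.9%) 1 protein-coding transcript held most of it. In St3gal4 the transcript of 2095 bases held 49.9% of the mean, and a fragment of 372 bases, annotated as coding, held 31.6%. In Galnt3 a processed transcript of 754 bases (45.7%) was level with the coding transcript of 3885 bases (44.0%). Galnt2 shares 3854 exonic bases on its strand with Gm20388 and Galnt4 shares 420 with Poc1b, so reads of those 2 members could be split with their neighbours and their levels are uncertain.

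Promoter sequence was available for 25 of the 39 genes in RefSeq on GRCm38.p6. Stretches from before a transcript start are shown for 4 of the genes that carry the comparisons, B3gnt5 for genotype and Galnt10, B3gnt3 and St6gal1 for litter. Each is written 5′ to 3′ on the strand of its gene, without any base of an exon annotated for that gene, and capitals mark matches of GGGCGG, the GC box, on either strand. B3gnt5 is chr16:19759984-19760207 on the plus strand, Galnt10 is chr11:57645192-57645441 on the plus strand, B3gnt3 is chr8:71701801-71702050 on the minus strand and St6gal1 is chr16:23225771-23226020 on the plus strand. The St6gal1 stretch lies inside the gene, which begins at 23224740, and precedes the start of its leading transcript at 23226021.
B3gnt5: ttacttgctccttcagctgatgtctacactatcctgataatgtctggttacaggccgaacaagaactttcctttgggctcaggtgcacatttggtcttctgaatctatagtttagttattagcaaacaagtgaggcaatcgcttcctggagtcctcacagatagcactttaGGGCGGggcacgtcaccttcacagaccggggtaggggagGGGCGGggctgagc
Galnt10: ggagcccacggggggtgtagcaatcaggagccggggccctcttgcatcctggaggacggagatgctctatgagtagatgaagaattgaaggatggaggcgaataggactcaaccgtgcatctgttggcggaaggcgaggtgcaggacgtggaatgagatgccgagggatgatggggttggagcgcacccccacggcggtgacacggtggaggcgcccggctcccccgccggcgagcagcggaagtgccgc
B3gnt3: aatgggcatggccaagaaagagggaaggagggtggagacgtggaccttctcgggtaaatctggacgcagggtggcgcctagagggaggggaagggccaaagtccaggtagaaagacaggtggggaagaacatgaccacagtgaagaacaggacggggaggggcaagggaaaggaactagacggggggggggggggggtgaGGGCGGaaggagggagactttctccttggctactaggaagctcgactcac
St6gal1: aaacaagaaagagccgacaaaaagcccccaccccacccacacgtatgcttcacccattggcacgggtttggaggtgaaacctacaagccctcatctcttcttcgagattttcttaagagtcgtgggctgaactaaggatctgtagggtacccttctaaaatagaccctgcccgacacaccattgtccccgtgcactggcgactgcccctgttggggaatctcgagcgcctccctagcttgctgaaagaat

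Letter strings were searched on both strands in the 250 bases before each of the 32851 starts of the RefSeq table and before the starts of the 25 genes. GGGCGG was found before 15 of the 25 genes and 32.7% of all starts. TATAAA, the TATA box, was in none of the 25 and in 12.4% of all starts. CCGGAA, a core of ETS sites, was found before 3 of the 25 and 3952 of the 32851 starts, CATAAA, a core of caudal sites, before 2 and 10.8%, and the STAT palindrome, TTC and GAA with 4 bases between them, before 1 and 5.85%. In the 4 stretches shown, B3gnt5 held 2 matches of GGGCGG and B3gnt3 held 1, Galnt10 and St6gal1 held no match of any of these strings, and no match overlapped another. These matches describe letters and were not tested for binding.

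The first comparison asked whether loss of epithelial Sprouty2 moved these enzymes. B3gnt5, a β1,3-N-acetylglucosaminyltransferase known for starting lacto-series chains, showed the clearest separation of the genotypes, with 28.1% more RNA in Spry2IEKO mice. It was the only member whose 6 Spry2IEKO values all lay above the 6 Spry2FF values. No member passed the adjusted threshold in either direction, where 0.0252% of all 15880 genes were called higher and 0.00630% lower. At an unadjusted p under 0.05 stood 6 of 33 members (18.2%, beside 6.18% of all genes), B3gnt5, St3gal6, Gcnt3, Galnt12 and Chst4 with differences above 0 and Galnt6 below. The median log2 difference (Spry2IEKO minus Spry2FF) of the 33 members was 0.10, beside 0.0076 over all genes, with 20 above 0 and 13 below. The members' median rested on single mice: it was 0.030 without Spry2FF mouse 9, 0.051 without Spry2IEKO mouse 4, 0.16 without Spry2FF mouse 7, 0.063 with sex as a covariate and 0.02 without Spry2IEKO mice 4 and 5.

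B3gnt5 (ENSMUSG00000022686, chromosome 16, 19760208 to 19772753 on GRCm38, as all positions here, plus strand) was 51.3, 54.3 and 62.0 normalized TPM (lowest, median, highest) in Spry2FF mice and 66.5, 70.7 and 74.1 in Spry2IEKO mice. The highest Spry2FF mouse, mouse 7, stayed under the lowest Spry2IEKO mouse, mouse 8, and 0.189% of all genes were likewise higher without overlap. The means were 55.1 ± 3.96 and 70.5 ± 2.91 (SD, n = 6 each, p = 0.00216 by the two-sided exact test, the lowest possible). The log2 difference was 0.36 (standard error 0.0581, 95% interval 0.23 to 0.48), with an adjusted p of 0.0789 by limma. Within litters it came to 0.33 in A and 0.38 in B, and the 3 mice of each genotype were apart within each litter.

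The B3gnt5 call sat at the edge of the threshold. It was reached in 1 of 26 alternatives, without Spry2FF mouse 7 (adjusted p = 0.0498), and adjusted p ran from 0.0498 to 0.887 over them, with log2 differences from 0.28 to 0.39. B3gnt5 was spread over 3 main coding transcripts. The leading one, of 4258 bases, held 65.3% of the gene and was 37.0 ± 5.40 in Spry2FF and 45.03 ± 7.05 normalized TPM in Spry2IEKO mice (SD, n = 6 each), with overlap, and the transcripts of 4175 and 4872 bases also had higher means in Spry2IEKO mice, 13.8 against 9.96 and 9.27 against 7.23.

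Of the initiating enzymes, Galnt6 and Galnt12 had unadjusted p under 0.05 in opposite directions. Galnt6 (chromosome 15, 100691813 to 100729376), an initiating transferase of epithelial cells, was 51.8, 58.0 and 68.8 normalized TPM (lowest, median, highest) in Spry2FF and 43.2, 48.7 and 53.9 in Spry2IEKO mice. Over all mice the groups overlapped, but within litter A and within litter B each Spry2IEKO mouse was below each Spry2FF mouse (an exact test of 3 mice against 3 cannot go below p = 0.1). The log2 difference was -0.26 (standard error 0.0832) and its adjusted p 0.689 by limma, with 0.013 by the two-sided exact permutation test alone.

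Galnt12 (chromosome 4, 47091909 to 47123070), a transferase prominent in the digestive tract, was 27.8, 33.6 and 41.3 normalized TPM in Spry2FF and 34.3, 39.004 and 49.8 in Spry2IEKO mice, with overlap and a log2 difference of 0.27 (adjusted p = 0.753 by limma). Galnt7, the highest of the step, had 66.5 ± 10.7 in Spry2FF and 77.8 ± 9.05 in Spry2IEKO mice (SD, n = 6 each), a log2 difference of 0.23 whose 95% interval from -0.01 to 0.47 included 0. This fit left out litter, and within litters the difference was 0.15 in A and 0.31 in B. Of the 11 tested initiating genes 8 had a log2 difference above 0 and 3 below.

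All 5 tested core genes had a log2 difference above 0, from 0.03 in Gcnt1 to 0.44 in Gcnt3. Gcnt3, the mucin-type core 2 and core 4 branching enzyme of secretory epithelia (chromosome 9, 70031496 to 70038088), was 26.9, 32.2 and 47.1 normalized TPM in Spry2FF and 34.7, 49.3 and 56.7 in Spry2IEKO mice. The pooled groups overlapped, while within each litter the Spry2IEKO mice were all above the Spry2FF mice, by 0.48 (A) and 0.41 (B) on the log2 scale. Its adjusted p was 0.753 by limma (unadjusted 0.0207). C1galt1, the highest of the core genes, was 51.9 ± 5.48 in Spry2FF and 62.0 ± 10.2 in Spry2IEKO mice (SD, n = 6 each), a log2 difference of 0.24 with a 95% interval of -0.00208 to 0.49.

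Among extension genes other than B3gnt5 the log2 differences were below 0 and none had an unadjusted p under 0.05 in this fit, which left out litter. Within litters B3gnt3 differed by -0.09 in A and -0.12 in B. B3gnt7 was 412, 435 and 529.7 normalized TPM in Spry2FF and 309, 389.6 and 488 in Spry2IEKO mice, a log2 difference of -0.20 (95% interval -0.43 to 0.04). B3gnt5 and the rest of its step thus had differences of opposite sign, while B3galt5 stood near 0 at -0.03 (95% interval -0.35 to 0.29).

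Of the 10 tested sialyltransferases 5 had log2 differences above 0 and 5 below. St3gal6, an α2,3-sialyltransferase acting on galactose of lactosamine chains (chromosome 16, 58468125 to 58524243), was 174, 197 and 223 normalized TPM in Spry2FF and 212, 224 and 235 in Spry2IEKO mice. The groups overlapped over all mice but not within litter B, and the log2 difference was 0.18 (standard error 0.0609, adjusted p = 0.692 by limma). St6galnac6, the highest of the step, had a log2 difference of -0.07 (95% interval -0.24 to 0.09). St6gal1, the α2,6-sialyltransferase of lactosamine ends, had the largest difference of the step at 0.57, but with an interval from -0.06 to 1.199. That interval is from a fit without litter, by which St6gal1 also differed, so it includes the spread between litters. Within litters the difference was 0.46 in A and 0.69 in B, each with overlap. With litter as a covariate the number of members called for genotype was still 0.

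Both tested fucosyltransferases had log2 differences slightly below 0, Fut2 with -0.06 and Fut4 with -0.11, and Fut2 turned to 0.10 in females alone and to 0.056 without Spry2IEKO mouse 8. Chst4, the tested sulfotransferase (chromosome 8, 110029153 to 110039740), was 28.0, 36.1 and 48.4 normalized TPM in Spry2FF and 31.0, 49.1 and 56.8 in Spry2IEKO mice. Spry2IEKO mouse 8 lay among the lowest Spry2FF mice and the other 5 Spry2IEKO mice between 47.3 and 56.8. The log2 difference was 0.35 (adjusted p = 0.797 by limma, unadjusted 0.0453) and 0.18 with sex as a covariate.

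Among the marker lists of epithelial cells, only the tuft sums separated the genotypes without overlap. The summed level of the 9 goblet markers was 8019.6 to 12157 normalized TPM in Spry2FF and 9611 to 18578 in Spry2IEKO mice, with overlap, and that of the 5 tuft markers 8.25 to 14.2 and 15.6 to 33.6, without overlap. Absorptive sums had the lower median in Spry2IEKO mice (4679 against 6462 in Spry2FF mice), as did epithelial sums (5551 against 6335). Enteroendocrine sums had the higher median in Spry2IEKO mice (570 against 463). The sums of these lists overlapped between the genotypes. None of the 14 goblet and tuft markers was at 0 in all mice. The part of any of these marker lists in the genotype differences of the members was not tested. From RNA of whole tissue, more cells of a type cannot be told apart from more RNA per cell. By staining of colon sections, the paper reports more tuft and goblet cells in Spry2IEKO mice, but not more enteroendocrine cells.

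**Figure D2:**
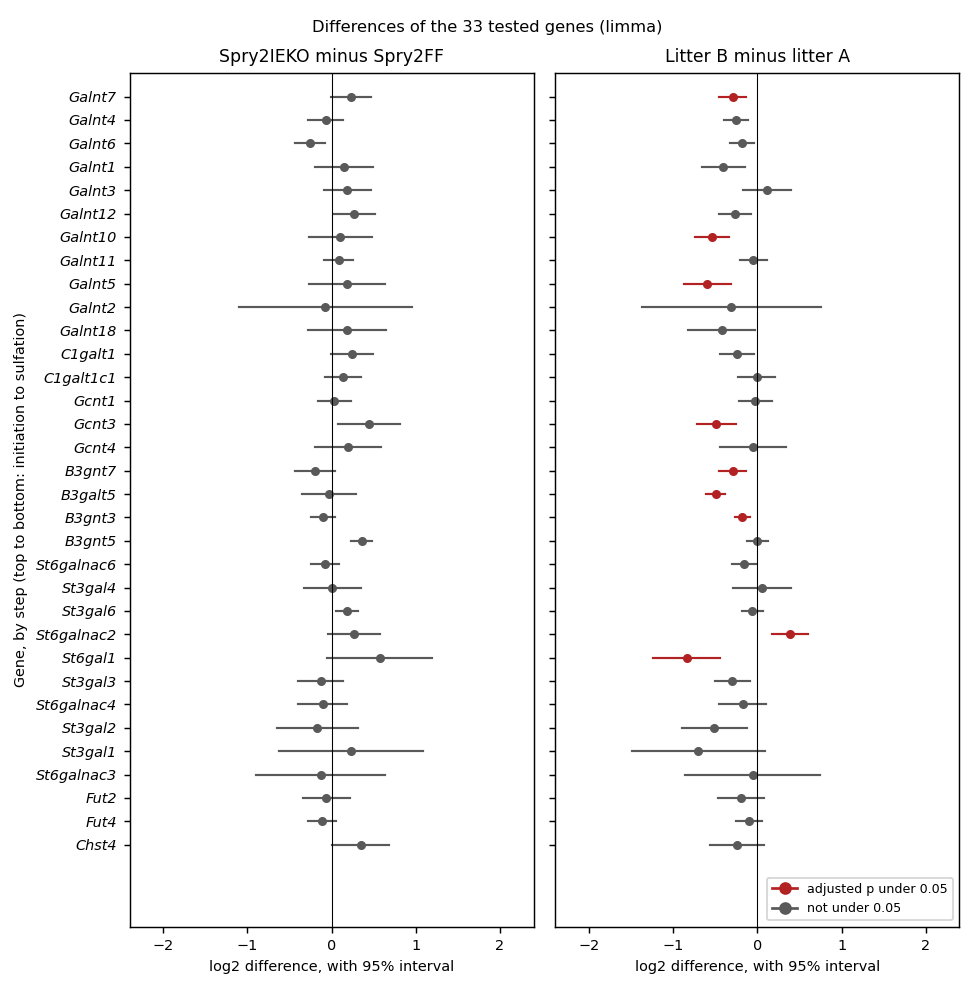
Log2 difference with its 95% interval (horizontal axes) for the 33 tested genes (vertical axis, by step), Spry2IEKO minus Spry2FF on the left and litter B minus litter A on the right, in red where the adjusted p is under 0.05. No gene is red on the left, and on the right 8 are red below 0 and St6galnac2 is red above 0.

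The second comparison set litter B against litter A, with genotype in the fit. Members of every step but fucosylation and sulfation passed as lower in litter B. The galactosyltransferase B3galt5, which was 29.1% lower, had the lowest adjusted p. Larger falls were those of St6gal1 (42.5%), Galnt5 (34.5%), Galnt10 (31.3%) and Gcnt3 (29.3%). Of the 33 tested members, 8 were lower in litter B at an adjusted p under 0.05 by limma (24.2%, beside 3.31% of all genes) and 1 was higher (3.03%, beside 1.08%). The median log2 difference (litter B minus litter A) of the members was -0.24, beside -0.05 over all genes, and 29 members were below 0, where 58.8% of all genes were. Rescaling to equal totals called 14 members lower and none higher, and of all genes 105 higher and 1353 lower instead of 171 and 525. Quantile normalization called 6 lower and 1 higher, and of all genes 209 and 268, and left the members' median at -0.20.

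The count rested on all 12 mice. Without 1 mouse it ran from 2 to 7, and it was at most 4 without any one of Spry2FF mice 2, 3, 7, 9 or 13 or Spry2IEKO mice 4, 5, 6 or 12. It was 1, B3galt5, without Spry2IEKO mice 4 and 5, and 0 in either genotype alone and in females alone, with all 9 differences in the same direction in each of these fits. B3galt5 and Galnt10 passed without each mouse in turn, 12 of 12 times, whereas B3gnt3 and Galnt7 did so once each.

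B3galt5 (ENSMUSG00000074892, chromosome 16, 96235801 to 96319859, plus strand), a β1,3-galactosyltransferase that builds type 1 chains in the gut, was 182, 188 and 194 normalized TPM (lowest, median, highest) in litter A and 123, 134 and 146 in litter B. The litters were apart by a wide margin and neither genotype departed from this, and 3 of 33 members were lower without overlap (9.09%, beside 2.94% of all genes). The means were 189 ± 4.79 and 134 ± 8.53 (SD, n = 6 each, p = 0.00216 by the two-sided exact test, the lowest possible), and the log2 difference was -0.50 (standard error 0.0497, adjusted p = 0.00286 by limma). The litter difference was -0.48 among Spry2FF mice and -0.51 among Spry2IEKO mice.

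Of the initiating enzymes, Galnt10, Galnt5 and Galnt7 were lower in litter B. Galnt10 (chromosome 11, 57645442 to 57787514), which like Galnt7 prefers peptides that carry GalNAc already, was 30.8, 35.1 and 39.1 normalized TPM in litter A and 20.4, 23.7 and 30.2 in litter B, without overlap, a log2 difference of -0.54 (standard error 0.0904, adjusted p = 0.0142 by limma). Galnt5 (chromosome 2, 57997884 to 58045860) was 12.5, 15.9 and 18.3 in litter A and 8.20, 10.2 and 12.6 in litter B. Only Spry2IEKO mouse 11 of litter B reached the lowest mouse of litter A, and the log2 difference was -0.60 (standard error 0.128, adjusted p = 0.0287).

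Galnt7 (chromosome 8, 57523828 to 57653032) was 69.5 to 87.1 normalized TPM in litter A and 54.3 to 79.5 in litter B, with a log2 difference of -0.30 (adjusted p = 0.0465 by limma). Galnt4, at -0.26, stood just outside the threshold, and passed it with a pseudocount of 1, with a minimum mean of 1, with equal totals and with sex as a covariate. Galnt3 was the only tested initiating gene above 0, at 0.11 (95% interval -0.17 to 0.40).

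Gcnt3 was the core gene that passed. It was 31.0, 50.6 and 56.7 normalized TPM in litter A and 26.9, 34.0 and 44.5 in litter B, with overlap, a log2 difference of -0.49 (standard error 0.104, adjusted p = 0.0283 by limma), and was below litter A in both genotypes, with log2 differences of -0.45 in Spry2FF and -0.52 in Spry2IEKO mice. The other core genes ranged from -0.24 in C1galt1 to -0.01 in C1galt1c1.

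B3gnt3 and B3gnt7 accompanied B3galt5 in the extension step. B3gnt3 (chromosome 8, 71690756 to 71701789), the enzyme of extended core 1 chains, was 115, 119.6 and 128 normalized TPM in litter A and 97.0, 106 and 114 in litter B, where the highest mouse, Spry2FF mouse 13, fell just under the lowest of litter A. Its log2 difference was -0.18 (standard error 0.0427, adjusted p = 0.0395 by limma). B3gnt7 (chromosome 1, 86302832 to 86307305) was 401, 479 and 529.7 in litter A and 309, 395 and 431 in litter B, a log2 difference of -0.29 (adjusted p = 0.0463). B3gnt5, the member that separated the genotypes, had a litter difference of 0.000427 (95% interval -0.12 to 0.13).

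The summed level of the 4 extension genes was 777 to 914 normalized TPM in litter A and 599.96 to 748 in litter B, without overlap, and that of the 12 initiating genes 363 to 425 and 308 to 364. The initiating sums met at the lowest mouse of litter A and the highest of litter B, and the summed sialyltransferases overlapped more, with 1125 to 1285 and 945 to 1215.

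St6gal1 and St6galnac2, both sialyltransferases, passed in opposite directions. St6gal1 (chromosome 16, 23224740 to 23360350) was 30.9, 47.6 and 63.3 normalized TPM in litter A and 14.3, 25.3 and 46.1 in litter B. Over all mice the litters overlapped, while within each genotype they were apart, narrowly so in Spry2IEKO mice, where mouse 11 of litter B, at 46.1, was just under the lowest mouse of litter A, at 46.96. The log2 difference was -0.84 (standard error 0.182, adjusted p = 0.0297 by limma).

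St6galnac2 (chromosome 11, 116675303 to 116694868), which sialylates core 1 GalNAc, was 29.8, 36.1 and 39.025 normalized TPM in litter A and 34.5, 44.6 and 56.4 in litter B, a log2 difference of 0.39 (standard error 0.0965, adjusted p = 0.0449 by limma). Its 2 protein-coding transcripts of the counted set showed no such difference in sum, at 20.4 ± 3.26 (litter A) and 19.9 ± 2.50 (litter B) (SD, n = 6 each, two-sided exact permutation test, p = 0.742). The longer of them, of 3643 bases, had the lower mean in litter B (17.1 ± 2.65 in litter A, 14.4 ± 2.11 in litter B) and the shorter, of 1683 bases, the higher (3.28 ± 0.81 and 5.44 ± 1.26), each with overlap. The other 4, without a coding frame in the annotation, summed to 14.7 ± 1.80 and 26.6 ± 6.49 (p = 0.00216 by the same exact test), and with the leading coding transcript alone the difference of the gene turned to -0.24. The symbol covers 2 overlapping Ensembl genes that share 383 exonic bases, so the split between transcripts is uncertain.

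**Figure D3:**
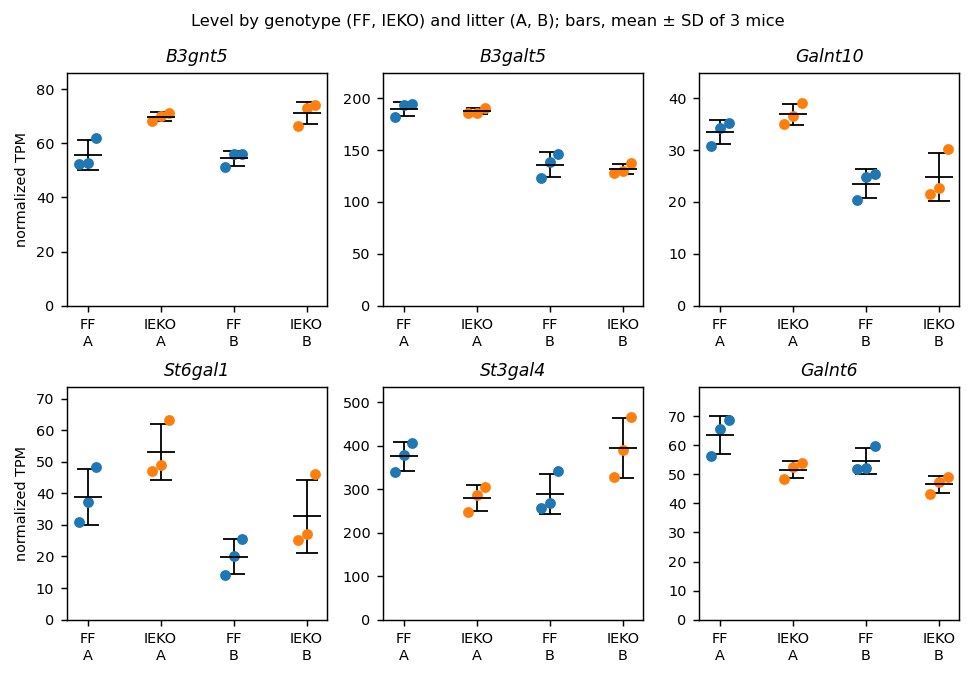
Level in normalized TPM (vertical axes, from 0) of 6 genes in the 4 sets of 3 mice, by genotype (Spry2FF blue, Spry2IEKO orange) and litter, with mean ± SD. B3gnt5 steps up with genotype in both litters, B3galt5 and Galnt10 step down with litter in both genotypes, and St3gal4 changes order between the litters.

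Markers of cells other than epithelium also differed between the litters. Summed endothelial markers were 29.5 to 55.2 normalized TPM in litter A and 12.8 to 20.1 in litter B, without overlap, and all 3 of them were lower without overlap. Summed fibroblast markers were 254 to 439 and 149.8 to 286, whereas the 8 epithelial markers summed to 4798 to 6340 and 5484 to 7273. None of these markers was at 0 in all mice, and their part in the litter differences was not tested. The numeric prefix of the library names also differs between the litters, so litter cannot be told apart from how the libraries were handled.

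The third comparison asked whether the genotype difference itself differed between the litters. No member passed, 2 of all genes did (0.0126%), and 1 of 33 members had an unadjusted p under 0.05 by limma (3.03%, beside 4.19% of all genes), a share not above that of all genes. That member, St3gal4 (chromosome 9, 35046576 to 35119268), is given in full because its values stood out when they were seen. In litter A it was 340.0, 379.5 and 407 normalized TPM in Spry2FF mice and 248, 287 and 305 in Spry2IEKO mice, and in litter B 258, 269 and 342 in Spry2FF and 329.5, 391 and 467 in Spry2IEKO mice. The Spry2IEKO mice were thus all lower in litter A and mostly higher in litter B. In litter A both males were Spry2FF mice, so this contrast is mixed with sex, and no fit of the interaction included sex. On the log2 scale the difference was -0.43 (A) and 0.45 (B), and the interaction of 0.87 (standard error 0.206) had an unadjusted p of 0.00138 and an adjusted p of 0.998 by limma. A transcript of 348 bases was 48.6 ± 41.8 normalized TPM in litter A and 3.09 ± 7.57 in litter B (SD, n = 6 each), and was listed at 0 in 4 mice.

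The last comparisons set the members against the summed markers of goblet cells, which make most of the gel-forming mucin, and of smooth muscle over the 12 mice, as the log2 difference per 1 unit of log2 marker sum. Chst4 rose with the goblet markers, with a slope of 0.73 (standard error 0.111, adjusted p = 0.00989 by limma). It was 1 of 33 members called with a positive slope (3.03%, beside 0.497% of all genes). No slope fit included sex, and Chst4 was 28.0 to 37.8 normalized TPM in males and 34.5 to 56.8 in females. Of the 33 slopes 28 were above 0, with a median of 0.23 beside 0.0222 over all genes, and Galnt7 (0.44), C1galt1 (0.45) and Gcnt3 (0.70) came next by adjusted p (0.079, 0.0916 and 0.104 by limma) without passing. The steepest slope was that of St6gal1, 1.05 (standard error 0.294, adjusted p = 0.138 by limma). Chst4 no longer passed without Spry2FF mouse 9 or Spry2IEKO mouse 4, without the 2 mice rich in fat markers, or with litter and genotype as covariates, where its slope was 0.83 (adjusted p = 0.095 by limma, in a range of 0.00671 to 0.119 over the alternatives). Without Spry2IEKO mouse 12 the number of members called was 8, with a median slope of 0.26 beside 0.0422 over all genes. The share of all genes called in that fit is not given here, so the 8 cannot be judged against it.

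C1galt1c1 fell with the smooth muscle markers, with a slope of -0.44 (standard error 0.0856, adjusted p = 0.0319 by limma), 1 of 33 members (3.03%) beside 0.139% of all genes called with a negative slope. Its 2 highest values, 69.2 and 68.3 normalized TPM, were in the 2 mice with the lowest smooth muscle sums, Spry2IEKO mice 12 and 4, and its lowest, 45.3, in Spry2IEKO mouse 8 with the highest sum, 7924. This call was lost without any one of Spry2FF mice 2, 3 or 9 or Spry2IEKO mice 4, 6, 8, 11 or 12, without the 2 mice rich in fat markers, and with totals made equal. C1galt1c1 lies on chromosome X (38630785 to 38635087). The males, Spry2FF mice 2, 3 and 9 and Spry2IEKO mouse 8, had smooth muscle sums of 5488 to 7924, against 3240 to 5179 in females. C1galt1c1 was 45.3 to 50.6 normalized TPM in these males and 51.2 to 69.2 in females. The slope is thus mixed with sex, whose part was not tested.

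**Figure D4:**
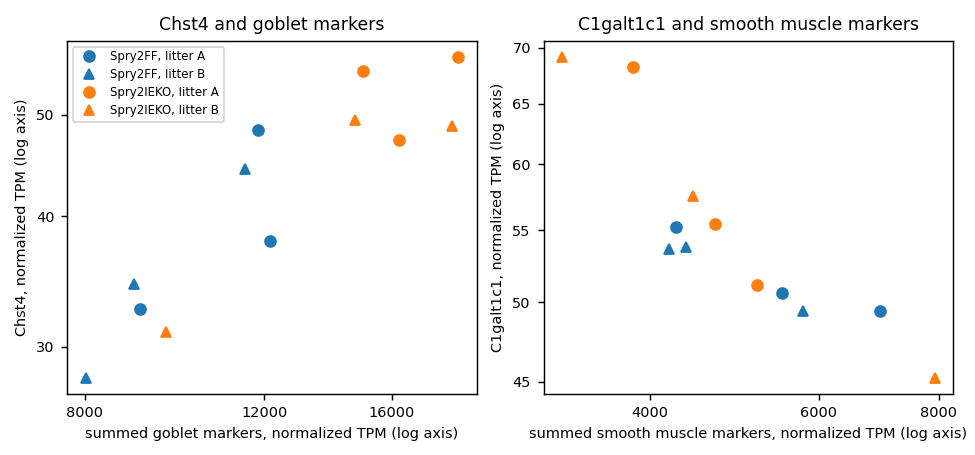
Chst4 against the summed goblet markers (left) and C1galt1c1 against the summed smooth muscle markers (right), all in normalized TPM on log axes, 1 point per mouse, colour for genotype and shape for litter. Chst4 is lowest in the mice with the least goblet marker RNA, and C1galt1c1 is lowest in the mouse with the most smooth muscle marker RNA.

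Genes around the members were taken from lists of relatives, sugar donor supply and mucin substrates. B4galnt2, which caps chains with a β1,4-linked GalNAc, fell in Spry2IEKO mice. In either direction 1 of 10 tested capping relatives, B4galnt2, passed, beside 5 of all 15880 genes. It was 56.5, 79.1 and 106 normalized TPM in Spry2FF and 29.6, 32.3 and 35.2 in Spry2IEKO mice, far apart, a log2 difference of -1.25 (standard error 0.123, adjusted p = 0.00229 by limma). Among the other capping relatives 2 had unadjusted p under 0.05 (beside 6.18% of all genes), Gal3st2, which sulfates galactose, with 0.46 and Abo, the blood group transferase, with 0.46. Abo did not overlap between the genotypes, at 10.5 to 14.4 normalized TPM in Spry2FF and 14.7 to 24.0 in Spry2IEKO mice. None of the 4 tested relatives of the initiating enzymes, the 2 of core and branching or the 11 of extension passed for genotype, and B4galt1, a β1,4-galactosyltransferase, had the lowest unadjusted p of these, 0.00435, at -0.34. B4galt1 did not overlap either, at 125.4 to 162.9 normalized TPM in Spry2FF and 83.5 to 124.6 in Spry2IEKO mice.

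None of the 26 tested genes of sugar donor supply had an unadjusted p under 0.05 for genotype. Of the 7 tested mucin substrates 4 did, beside the 6.18% of all genes, without passing the adjusted threshold. These were the gel-forming mucin Muc2 with 0.53 (727, 857 and 1000 in Spry2FF, 1022, 1227 and 1502 normalized TPM in Spry2IEKO mice, adjusted p = 0.16 by limma), the mucus protein Fcgbp with 0.51, and the membrane mucins Muc4 with 0.52 and Muc13 with -0.31. For litter, Galnt15 (-0.79), an initiating relative, and 3 of 26 donor supply genes (beside 3.31% of all genes) were lower at an adjusted p under 0.05 by limma, the GDP-fucose transporter Slc35c1 (-0.28) and the UDP-GlcNAc pathway enzymes Gfpt1 (-0.26) and Gnpnat1 (-0.36), while the membrane mucin Muc3 was higher (0.72). The calls of these 5 genes were not recomputed without single mice, where the number of all genes called lower ran from 135 (without Spry2IEKO mouse 5) to 723 (without Spry2IEKO mouse 8) instead of 525.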

How the data were processed

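Full-thickness distal colon RNA of 12 mice was prepared with a stranded mRNA kit. The submitters' processing notes name CASAVA, kallisto, sleuth and mm10. The deposited unit is a signal: per transcript, the authors' TPM scaled once more between mice. The paper states an approximate depth per sample, but the read counts behind each value are unknown. For that reason no interval for counting error could be set. The analysis plan had assumed plain TPM. Totals ran from 918816 to 1069158. The paper describes single-ended reads and the labels paired-end reads. Columns with the authors' own test statistics and p-values were not used.

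Of 113974 entries 781 repeats were dropped and transcripts summed by symbol. A value of 0 is only a listed 0. The comparisons ran over genes whose mean reached 0.5, with limma 3.58.1 in R 4.3.3 (two-sided, Benjamini-Hochberg) on log2(signal + 0.5). No covariate was used for genotype, and genotype was a covariate for litter. Single genes were also compared by exact permutation over 924 splits, in Python 3.11.15 (SciPy 1.17.1, NumPy 2.4.6, pandas 2.3.3), and figures drawn with matplotlib 3.10.9. Positions are GENCODE M21 on GRCm38, the build of mm10. In simulated litter data of 15880 genes, 76% of 200 genes changed by 1 on the log2 scale were recovered, and 3.8% of the calls were wrong. The litter differences called in members were all smaller than this, the largest being -0.84 (St6gal1), so these rates do not describe them. Genes given in full passed the threshold, did not overlap between groups, or led their step by level or genotype test. The alternatives tried were other pseudocounts, filters, scalings, covariates and subsets of mice. Members, lists and this rule were chosen with earlier results of these data known.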

Additional observations from a re-analysis of the deposited data

Results flagged for a closer look

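Of 66 sets tested (33 members in each genotype of 6 mice), 3 held a mouse far from the others by Dixon's criterion, and chance alone marks about 1 in 20 such sets. Chst4 was 31.0 normalized TPM in Spry2IEKO mouse 8, below the 47.3 to 56.8 of the other 5 Spry2IEKO mice. That mouse also had the lowest goblet marker sum of the Spry2IEKO mice (9611) and the highest smooth muscle marker sum of all 12 (7924). It was also the only male of the Spry2IEKO mice. Chst4 was 28.0 to 37.8 in the males of both genotypes and 34.5 to 56.8 in the females. The part of sex or of either marker sum in the Chst4 value of this mouse was not tested. Galnt11 was 11.3 in Spry2FF mouse 9, below 13.9 to 15.1 in the other Spry2FF mice. St6galnac3 was 2.01 in Spry2FF mouse 10, above 0.272 to 0.697 in the others.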

How the results depend on the processing

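No paired analysis was possible because each mouse has a number of its own, so genotypes and litters share no replicate numbers. Of 565 values of single members under the alternatives, 440 kept their direction and side of the threshold, 121 kept their direction and lost the call, 1 gained it and 3 changed direction. The 3 were the genotype difference of Fut2 in females alone (0.10) and without Spry2IEKO mouse 8 (0.056, in a range of -0.11 to 0.056 without 1 mouse), and the litter difference of St6galnac2 with its leading transcript alone (-0.24). The cause of these was not tested.

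The number of members called for genotype stayed at 0, except that it was 1 without Spry2FF mouse 7, so the range without 1 mouse was 0 to 1. For litter it was 9 and became 5 with no filter on low values, where 24755 genes were tested, 14 with equal totals, 0 in Spry2FF mice alone, 0 in Spry2IEKO mice alone and 0 in females alone, fits of 6 to 8 mice. It was 1 without the 2 mice with most fat marker RNA, and 2 to 7 without 1 mouse. With no filter, all genes called for litter were 422 instead of 696. For the genotype by litter interaction it was 0 in every alternative. For the goblet slope the 1 call became 0 with litter and genotype as covariates and 0 without the 2 mice with most fat marker RNA, and 0 to 8 without 1 mouse. For the smooth muscle slope it became 0 with equal totals and 0 without those 2 mice, and 0 to 1 without 1 mouse. The fits without those 2 mice and the lists scored by mean log2 value were added after the data had been seen. The 6 members with means below 0.5 entered a test only where no filter was applied. The unknown read counts behind their values limit what their levels can show.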
